A study of Mus musculus with 20 samples.

Results

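The genes described here are 8 zinc finger transcription factors of the EGR and KLF families: Egr1, Egr2, Egr3, Klf2, Klf4, Klf5, Klf6 and Klf10. They were taken by symbol from a table of RNA sequencing counts with 53311 rows, in which each of the 8 had 1 row. After the filter on low counts, 13560 genes were tested, and 6 of the 8 members were among them. Egr2 and Egr3 were too low to be tested with the rest.

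The samples were gastrocnemius, a calf muscle, of mice that all carried the genotype Cre+:iMSBmal1 fl/fl, a Cre together with floxed alleles of Bmal1 (gene symbol Arntl), the transcription factor that drives the circadian clock. They had received vehicle or the treatment labelled iMSBmal1KO, and their muscle was taken either without exercise or 1 h after a 30 min treadmill run. Zeitgeber time 13 is recorded for samples of all groups. For the exercised ones it is not clear here whether this is the time of the run or of collection. A difference in time of day therefore cannot be told apart from exercise. The 4 groups of 5 samples were therefore vehicle at rest, vehicle after exercise, knockout-labelled at rest and knockout-labelled after exercise. A genotype difference below means knockout-labelled against vehicle. In these groups an effect of the treatment itself cannot be told apart from loss of Bmal1. The iMSBmal1 line is known as an inducible model whose Cre is driven by a skeletal actin promoter, so that the non-muscle cells of the tissue keep Bmal1; neither that promoter nor the inducing agent, the age or the sex of the mice is in the labels. The labels do not say that the 5 samples of a group came from separate animals, and p-values measure only the spread between these samples.

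EGR proteins bind GC-rich DNA through 3 zinc fingers and are classic immediate early genes, transcribed within minutes of a growth factor, depolarisation or contraction through serum response factor and its ERK-driven partners. KLF proteins bind CACCC and GC boxes with related fingers, and their members act in different cells. Klf2 and Klf4 are best known from endothelium under blood flow, Klf5 from smooth muscle, Klf6 from the response to injury, and Klf10 from the early response to TGF-beta. In muscle, Egr1 follows contraction, Egr3 is needed for muscle spindles, and Egr2 drives myelination in the Schwann cells of the nerve.

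Promoter sequence is shown for Klf4, Klf2 and Klf6, the 3 members that RefSeq's table of gene starts (GRCm38.p6) holds with 1 window each. Each window is the 250 bases before the start, written 5′ to 3′ on the gene's strand. Capitals mark matches, on either strand, to the E-box CACGTG that BMAL1 and CLOCK are known to bind, to the cyclic AMP response half-site TGACG, to the EGR site GCGNGGGCG, and to the MEF2 site and the CArG box of serum response factor. The Klf4 window lies at chr4:55532476-55532725 on the minus strand, the Klf2 window at chr8:72318812-72319061 on the plus strand, and the Klf6 window at chr13:5861239-5861488 on the plus strand.
Klf4: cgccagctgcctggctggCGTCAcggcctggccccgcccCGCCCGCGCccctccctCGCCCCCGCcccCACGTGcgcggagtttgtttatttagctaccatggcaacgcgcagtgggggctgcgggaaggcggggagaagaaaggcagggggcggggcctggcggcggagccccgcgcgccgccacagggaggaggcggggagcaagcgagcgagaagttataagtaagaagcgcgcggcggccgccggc
Klf2: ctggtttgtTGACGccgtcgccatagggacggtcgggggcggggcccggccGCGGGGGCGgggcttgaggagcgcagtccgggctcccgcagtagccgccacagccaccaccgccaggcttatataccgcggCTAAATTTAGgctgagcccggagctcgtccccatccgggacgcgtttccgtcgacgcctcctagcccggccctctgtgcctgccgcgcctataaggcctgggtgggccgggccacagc
Klf6: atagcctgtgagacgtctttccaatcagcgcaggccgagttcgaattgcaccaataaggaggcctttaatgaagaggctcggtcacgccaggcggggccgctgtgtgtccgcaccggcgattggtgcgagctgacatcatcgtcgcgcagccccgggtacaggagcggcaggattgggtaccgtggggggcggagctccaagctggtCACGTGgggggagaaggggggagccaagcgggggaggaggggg

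The Klf4 window held 1 E-box, 1 half-site and 2 EGR sites. The Klf2 window held 1 half-site, 1 EGR site and 1 MEF2 site, and no E-box. The Klf6 window held 1 E-box and no match to the other marked motifs. Of the 32851 windows of this length in the table, 6.02% held an E-box, 17.8% a half-site, 4.70% an EGR site, 2.92% a MEF2 site and 1.47% a CArG box. All 3 windows also had the GC box GGGCGG, as did 32.7% of all windows, and the Klf2 window had the CACCC box, as did 52.0%; neither is in capitals, and a GC box can overlap an EGR site. Egr2 had 5 windows, of which 4 held a CArG box, but these are not separate sites. The windows starting at bases 67537619, 67537620 and 67537680 overlap, and their matches, at -72, -73 and -133, are 1 box. Egr1, Egr3, Klf5 and Klf10 were not matched. A match is a string of letters and not a measured binding site.

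Total counts ran from 8045154 to 11269812 per sample. Values below are CPM, counts scaled to 1e+06 per library with edgeR's TMM factors. The targeted gene did not check the labels: Arntl lay between 7.90 and 21.4 CPM over all samples, and knockout-labelled muscle was above vehicle by 0.24 on the log2 scale at rest and by 0.20 after exercise (edgeR adjusted p = 0.725 and 0.689). A count over the whole gene need not show a deletion of part of it. Dbp, a direct BMAL1 target, did separate the groups, at 56.0 to 87.1 CPM in vehicle and 10.4 to 14.3 CPM in knockout-labelled samples. Muscle fibre markers summed to 100965 to 195020 CPM, with all 7 detected in every library. Slow fibre markers varied from 35.5 to 3539 CPM between libraries, and Myh7, Tnnt1 and Tnnc1, which define slow fibres, were each at 0 in 1 library. In whole tissue, fewer cells of a type and less RNA per cell cannot be told apart.

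Per kilobase of exon, Klf2 had the highest mean level over the 20 samples, at 9.55 ± 2.73 CPM per kb (SD). Klf6 (5.94 ± 1.29), Klf4 (5.76 ± 2.25) and Klf10 (3.58 ± 1.40 CPM per kb) followed. Egr1, at 0.941 ± 0.638 CPM per kb, and Klf5, at 0.369 ± 0.15, were lower, and Egr2 and Egr3 were at 0.0805 and 0.0797 CPM per kb. Klf6 and Klf4 did not differ beyond their spread, nor did Egr2 and Egr3, and the ranges over the 20 samples overlapped between all neighbours in this order. Genes further apart did separate, such as Klf10 (at least 1.52) and Klf5 (at most 0.591 CPM per kb). Exon lengths came from GENCODE M21, which need not be the annotation behind the counts.

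**Figure D1:**
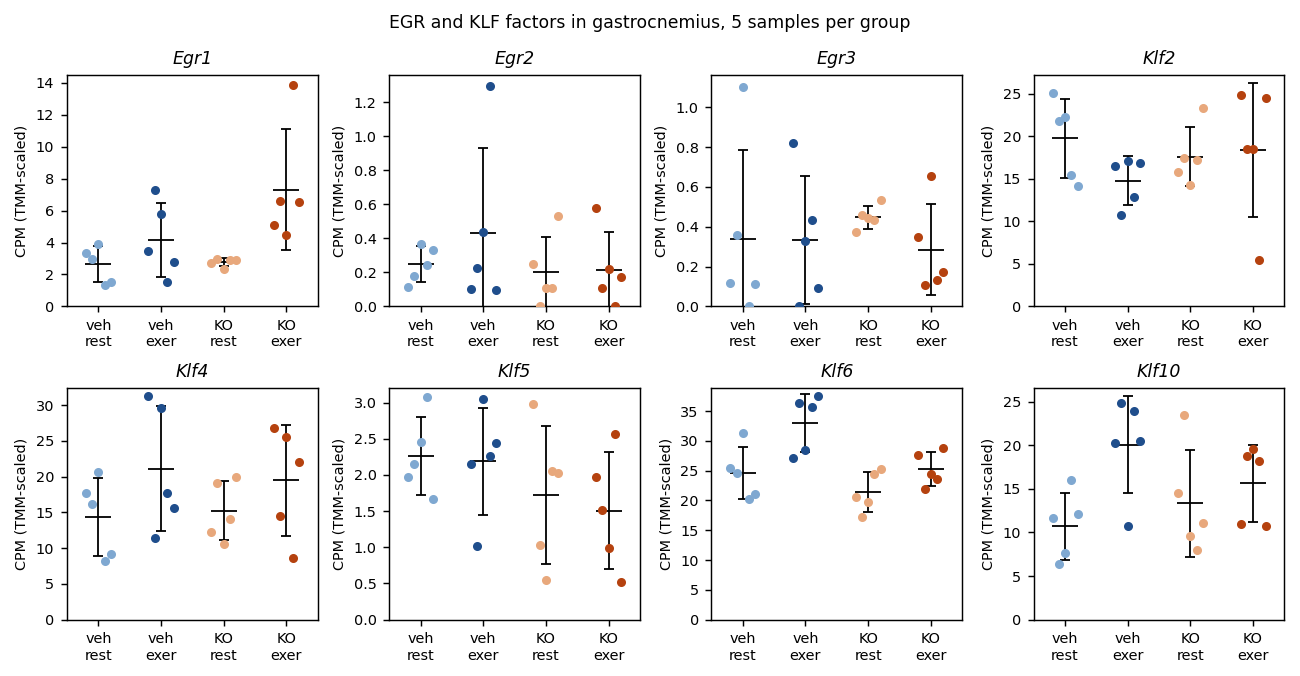
Level of each member in TMM-scaled CPM (vertical axis, from 0) in the 4 groups (veh, vehicle; KO, knockout-labelled; exer, after exercise), with 1 point per sample and bars for the mean ± SD of 5 samples. Egr1 after exercise in knockout-labelled muscle sits at 4.49 to 13.9 CPM, above the 2.32 to 2.99 CPM at rest, while the panels of Egr2 and Egr3 rest on 0 to 12 counts per library.

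Among the EGR genes, Egr1 was the member with the largest difference after exercise, and it lay on the knockout-labelled side. In vehicle, Egr1 was at 3.36, 2.96, 3.92, 1.35 and 1.55 CPM at rest and at 3.49, 7.28, 5.78, 1.51 and 2.81 CPM after exercise, in replicates 1 to 5. In knockout-labelled muscle it was at 2.74, 2.99, 2.32, 2.91 and 2.88 CPM at rest and at 5.09, 6.59, 4.49, 13.9 and 6.51 CPM after exercise. The vehicle groups overlapped, with replicate 4 after exercise as low as the lowest resting samples, whereas every exercised knockout-labelled sample was above every resting one. These levels rest on 11 to 103 counts per library.

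Egr1 was 2.61-fold higher after exercise in knockout-labelled muscle, a log2 fold change of 1.39 (SE 0.37, 95% interval 0.63 to 2.14), but this missed the threshold with an edgeR adjusted p of 0.813. In that comparison 0.487% of the genes tested had ranges that lay apart with exercise higher. In vehicle the log2 fold change of Egr1 was 0.65 (SE 0.38, edgeR adjusted p = 0.673), and the test of the difference between the responses gave 0.73 (SE 0.53, edgeR adjusted p = 0.936). Both values leaned on single libraries: without vehicle after exercise replicate 2 the response of Egr1 in vehicle was 0.36, and without knockout-labelled after exercise replicate 4 the difference between the responses was 0.38. Averaged over the genotypes, exercise gave a log2 fold change of 1.02 (SE 0.26) with an edgeR adjusted p of 0.0878. DESeq2 put that adjusted p at 0.0115, and edgeR without vehicle after exercise replicate 4 at 0.0360. Without knockout-labelled after exercise replicate 4, at 13.9 CPM, the log2 fold change of Egr1 with exercise in knockout-labelled muscle was 1.03, and the genotype difference after exercise went from 0.80 (edgeR adjusted p = 0.200) to 0.45 (edgeR adjusted p = 0.513).

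Egr2 and Egr3 were close to the limit of detection. Egr2 had 1, 2, 3, 2 and 3 counts in vehicle at rest, 1, 2, 4, 12 and 1 in vehicle after exercise, 2, 0, 1, 1 and 5 in knockout-labelled at rest, and 5, 1, 2, 0 and 2 in knockout-labelled after exercise. Egr3 had 1, 4, 9, 0 and 1, then 8, 0, 3, 4 and 1, then 3, 4, 4, 4 and 5, and then 3, 1, 6, 1 and 2 counts in the same groups. All groups overlapped for both genes, and 16 libraries for Egr2 and 11 for Egr3 had 3 counts or fewer. Over 8 exact two-sided permutation tests of their CPM (2 genes, 4 comparisons) the smallest p was 0.143 and every Benjamini-Hochberg adjusted p was at least 0.998, so no difference was detectable at this depth.

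Klf10, an early TGF-beta response gene, had the largest log2 fold change with exercise in vehicle muscle of the 6 tested members. In vehicle it was at 11.6, 6.36, 7.60, 16 and 12.1 CPM at rest and at 20.2, 24.8, 10.8, 23.9 and 20.5 CPM after exercise. In knockout-labelled muscle it was at 14.5, 23.4, 9.63, 7.98 and 11.1 CPM at rest and at 11, 18.8, 19.6, 18.2 and 10.7 CPM after exercise. Of the exercised vehicle samples, all but replicate 3 lay above the highest resting one, and in knockout-labelled muscle the exercised samples lay within the range of the resting ones.

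The log2 fold change of Klf10 was 0.91 in vehicle (SE 0.31, 1.88-fold) and missed the threshold with an edgeR adjusted p of 0.281. In knockout-labelled muscle it was 0.23 (SE 0.31, edgeR adjusted p = 0.9995). The difference between the responses was -0.68 (SE 0.43, 95% interval -1.59 to 0.23, edgeR adjusted p = 0.897), so the smaller value in knockout-labelled muscle was not separated from that in vehicle. Over all settings run, the value of Klf10 in knockout-labelled muscle ranged from 0.09 (slow fibre covariate; also without knockout-labelled at rest replicate 4) to 0.53 (without knockout-labelled at rest replicate 2), and the difference between the responses from -0.87 (without vehicle at rest replicate 4) to -0.37 (without knockout-labelled at rest replicate 2).

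Klf6, a zinc finger factor first met as an injury response gene, was the member with the steadiest values and the one member called in a comparison. In vehicle it was at 25.5, 24.5, 31.4, 20.3 and 21.1 CPM at rest and at 27.1, 36.3, 28.4, 35.6 and 37.6 CPM after exercise. In knockout-labelled muscle it was at 20.5, 17.2, 19.7, 24.4 and 25.3 CPM at rest and at 27.7, 21.9, 24.4, 23.6 and 28.9 CPM after exercise. 3 of the exercised vehicle samples were above every other sample of the 4 groups, and vehicle at rest overlapped with both knockout-labelled groups.

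Averaged over rest and exercise, Klf6 was lower in knockout-labelled muscle by a log2 fold change of -0.29 (SE 0.092, 0.819-fold), which passed with an edgeR adjusted p of 0.0441. In this comparison 11% of the genes tested were called and 5.78% were called lower, beside 1 of the 6 tested members. The call held in 18 of 33 other settings, with adjusted p from 0.0218 to 0.107. It was lost without any 1 of 11 libraries, which were vehicle at rest replicates 1 and 3, vehicle after exercise 2, 4 and 5, knockout-labelled at rest 1, 2 and 3, and knockout-labelled after exercise 2, 3 and 4; the highest of these edgeR adjusted p values was 0.0962, without vehicle at rest replicate 3.

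The separate comparisons of Klf6 did not pass. After exercise the genotype difference was -0.38 on the log2 scale (SE 0.13, edgeR adjusted p = 0.0801; 0.0480 without vehicle after exercise replicate 1), and at rest it was -0.20 (SE 0.13, edgeR adjusted p = 0.543). With exercise the log2 fold change was 0.43 in vehicle (SE 0.13, edgeR adjusted p = 0.170) and 0.24 in knockout-labelled muscle (SE 0.13, edgeR adjusted p = 0.9995). Averaged over the genotypes it was 0.33 (SE 0.092) with an edgeR adjusted p of 0.119, which became 0.0489 without vehicle at rest replicate 3. The difference between the responses was -0.19 (SE 0.18, edgeR adjusted p = 0.963). Without vehicle at rest replicate 3 it was -0.29, and the genotype difference of Klf6 at rest was -0.09.

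**Figure D2:**
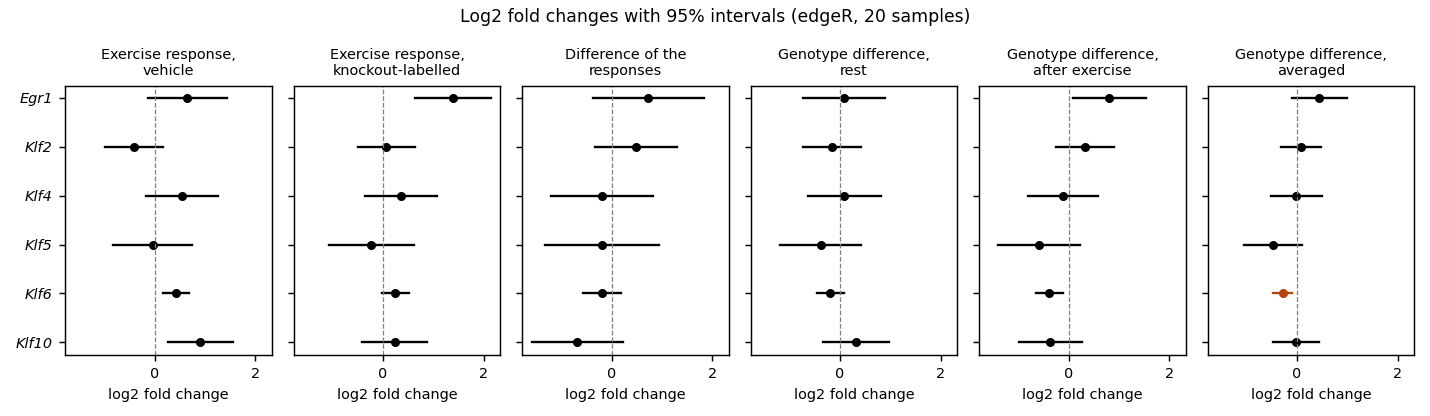
Log2 fold change (horizontal axis) of the 6 tested members in each comparison, with 95% intervals from the edgeR fit to 20 samples; the coloured point is the one with an adjusted p under 0.05. Klf6 averaged over rest and exercise is that point at -0.29, and Egr1 lies at 1.39 with exercise in knockout-labelled muscle against 0.65 in vehicle.

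Klf2 and Klf4 are paired in biology as the flow-responsive factors of endothelium, and here they varied together from library to library. Klf4 was at 17.7, 16.1, 20.7, 8.24 and 9.22 CPM in vehicle at rest and at 31.3, 11.5, 29.6, 17.7 and 15.6 CPM in vehicle after exercise. In knockout-labelled muscle it was at 12.3, 19.2, 10.6, 14.1 and 19.9 CPM at rest and at 26.8, 14.5, 25.5, 8.64 and 22.0 CPM after exercise. All 4 groups overlapped, and each exercised group spanned low and high samples.

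Klf2 was at 25.1, 21.8, 22.3, 15.5 and 14.2 CPM in vehicle at rest and at 16.5, 10.7, 17.1, 12.8 and 16.9 CPM in vehicle after exercise. In knockout-labelled muscle it was at 15.8, 17.5, 14.3, 17.3 and 23.3 CPM at rest and at 24.9, 18.5, 18.5, 5.40 and 24.5 CPM after exercise. Its groups overlapped as well, with the lowest sample, knockout-labelled after exercise replicate 4, also among the lowest for Klf4.

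Neither gene passed in any comparison. With exercise in vehicle the log2 fold change of Klf4 was 0.55 (SE 0.34, edgeR adjusted p = 0.707) and that of Klf2 was -0.42 (SE 0.27, edgeR adjusted p = 0.747). In knockout-labelled muscle the values were 0.36 for Klf4 (SE 0.34) and 0.07 for Klf2 (SE 0.27), both with an edgeR adjusted p of 0.9995. With the slow fibre marker sum of each library as a covariate, a setting added after the data were seen, the averaged exercise log2 fold change of Klf4 was 0.69 in place of 0.46, and its edgeR adjusted p was 0.0403 in place of 0.676. With the endothelium marker sum as covariate it was 0.65 (edgeR adjusted p = 0.0608). The log2 fold change of Klf2 with exercise in vehicle was closer to 0 with both, going from -0.42 to -0.29 with the slow fibre covariate and to -0.15 with the endothelium covariate (edgeR adjusted p = 0.640 and 0.792), while in knockout-labelled muscle it went from 0.07 to 0.28 and 0.14. Without vehicle after exercise replicate 1, Klf4 with exercise in vehicle was 0.36.

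Summed RNA of cell type markers moved with both genes. Over the 20 libraries Klf4 was lower where the summed CPM of 7 skeletal muscle fibre markers was higher, with Pearson's r = -0.854 (permutation p = 1e-05, the smallest that 100000 permutations can give; adjusted p = 0.00066 over 66 relations) and Spearman's rho = -0.829 (permutation p = 2e-05, adjusted 0.00132). Without vehicle after exercise replicate 3 and knockout-labelled after exercise replicate 4, the 2 farthest from the median, r was -0.802. Over deviations from the group means it was -0.899. Klf2 was also lower where the fibre markers were higher, with r = -0.685 (permutation p = 0.00047, adjusted 0.0103), rho = -0.657 (permutation p = 0.00218, adjusted 0.036) and r = -0.664 without the same 2 libraries. Both quantities are parts of the same library total, and the part of cell makeup in the levels of Klf2 and Klf4 was not tested beyond the slow fibre and endothelium covariates. Of the 7 fibre markers Myh4, a myosin of fast fibres, had the highest mean, at 58298 CPM, so their sum need not measure fibre amount alone.

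Klf2 was higher where 8 endothelium markers summed higher, with r = 0.78 (adjusted permutation p = 0.0103) and rho = 0.69 (adjusted permutation p = 0.0266). The relation was weaker, at r = 0.57, without vehicle after exercise replicate 2 and knockout-labelled after exercise replicate 4. All 8 endothelium markers were detected in every library, and their sum ran from 151 to 194 CPM in vehicle at rest, 107 to 181 in vehicle after exercise, 144 to 205 in knockout-labelled at rest and 117 to 193 in knockout-labelled after exercise. For Klf4 the same relation passed by rank (rho = 0.63, adjusted permutation p = 0.0428) and not by Pearson's r (0.55, adjusted permutation p = 0.12). Klf2 was also higher with slow fibre markers by r (0.62, adjusted permutation p = 0.0333) but not by rank (0.48, adjusted permutation p = 0.19), and with smooth muscle markers by rank (0.70, adjusted permutation p = 0.0266) but not by r (0.67, adjusted permutation p = 0.0647). None of the other relations of the 6 tested members with 11 marker lists passed by either measure. Over deviations from the group means, r with endothelium markers was 0.77 for Klf4 and 0.76 for Klf2. With slow fibre markers it was 0.75 for Klf4 and 0.63 for Klf2, and with smooth muscle markers 0.69 and 0.67. These values over deviations were not tested.

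**Figure D3:**
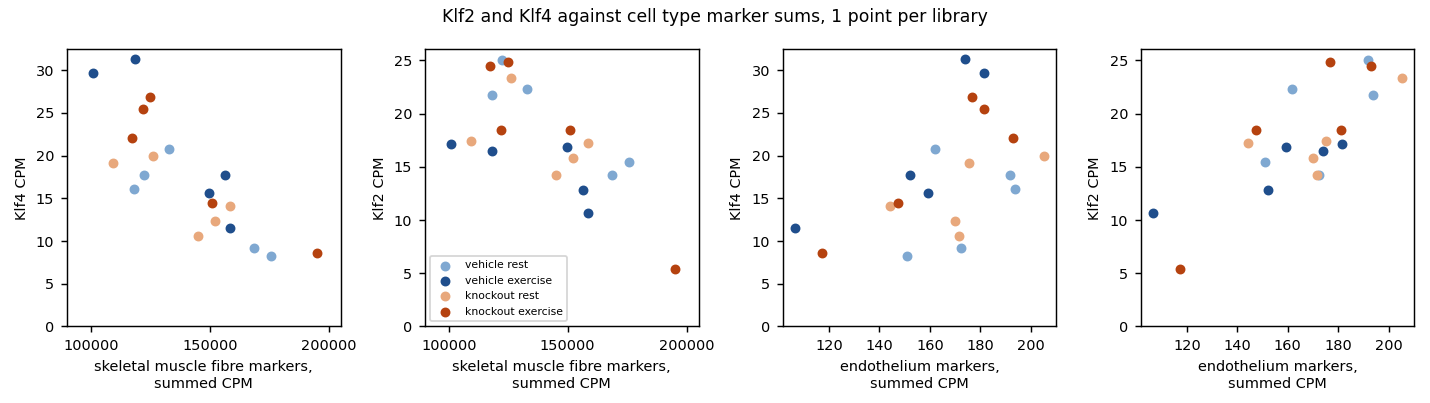
Klf4 and Klf2 in CPM (vertical axes) against the summed CPM of skeletal muscle fibre markers and of endothelium markers (horizontal axes), with 1 point per library, coloured by group. The library farthest right for fibre markers, at 195020 CPM, is knockout-labelled after exercise replicate 4, with 8.64 CPM of Klf4 and 5.40 CPM of Klf2.

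Klf5, a factor of smooth muscle growth, was low, with 5 to 28 counts per library. Its mean was 2.26 ± 0.536 CPM in vehicle at rest, 2.19 ± 0.736 in vehicle after exercise, 1.73 ± 0.952 in knockout-labelled at rest and 1.51 ± 0.804 in knockout-labelled after exercise (SD, 5 samples each). The averaged genotype difference was -0.48 on the log2 scale (SE 0.28, edgeR adjusted p = 0.299), with an interval of -1.06 to 0.09.

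Taking the 6 tested members as a list, none was called by edgeR with exercise in vehicle, where 0.804% of all genes were called and 2 members (Klf6 and Klf10) had an unadjusted p under 0.05, as had 8.92% of all genes. With exercise in knockout-labelled muscle edgeR called 0 members and 0% of genes, and only Egr1 had an unadjusted p under 0.05, as had 4.71% of genes. For the genotype difference it called 0 members at rest (3.86% of genes), where 0 members and 14.6% of genes had an unadjusted p under 0.05, and 0 after exercise (6.42% of genes), where Egr1 and Klf6, 2 members, and 19.4% of genes did. For the difference between responses it called 0 members and 0% of genes, with 0 members and 5.83% of genes at an unadjusted p under 0.05; DESeq2 called 3 genes there, none of them a member. For the averaged exercise response it called 0 members beside 0.634% of genes, with 3 members (Egr1, Klf6 and Klf10) and 8.28% of genes at an unadjusted p under 0.05. DESeq2 and limma-voom also called 0 members in each of these, apart from Egr1 by DESeq2 in the averaged exercise response.

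The median log2 fold change of the 6 members with exercise was 0.49 in vehicle, with 4 above 0, and 0.23 in knockout-labelled muscle, with 5 above 0, beside 0.00 over all genes in both. These exercise comparisons and the genotype comparisons share samples, and their values are not independent of each other.

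Most members varied more within groups than other genes of their level did. The SD of log2 CPM within groups was 0.58 for Klf4, 0.52 for Klf2 and 0.51 for Klf10, against medians of 0.20, 0.20 and 0.21 over genes within 0.5 log2 units of their mean level, and 97.6%, 96.7% and 96.0% of those genes varied less. Egr1 had an SD of 0.61 against a median of 0.36, with 92.7% of genes of its level lower. Klf6 had an SD of 0.22 against 0.18, with 70.1% lower.

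Within groups, the members did not move as a family. Over deviations from the group means, Klf2 and Klf4 had r = 0.80, Klf10 had -0.44 with Klf6, -0.40 with Klf4 and -0.39 with Klf2, and Egr1 lay between -0.24 and 0.14 with the other 5. These are descriptions over 20 libraries that share the same totals.

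**Figure D4:**
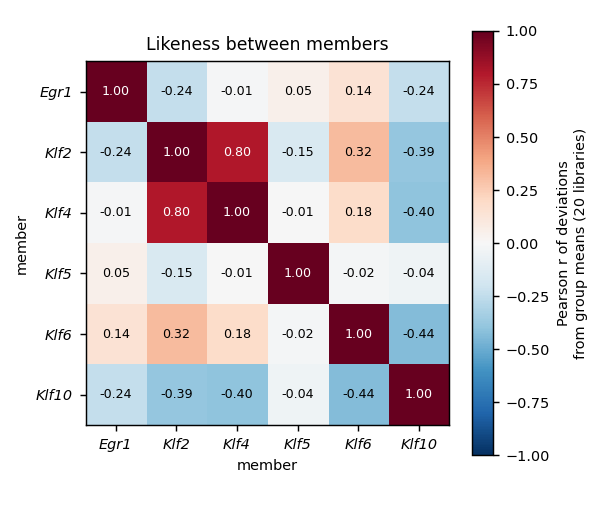
Pearson correlation between the 6 tested members (both axes) over deviations of log2 CPM from the group means in 20 libraries, with the value printed in each square. Klf2 and Klf4 stand out at 0.80, and the squares of Klf10 with the other 5 are below 0.

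The genes most like each member were found by Pearson's r of log2 CPM over the 20 samples among 11723 genes, so high values are the top of many. For Klf6 they were Per1 (0.84), a clock gene, Nr4a1 (0.82), an immediate early nuclear receptor, and Nfatc1 (0.79), a calcineurin-controlled factor. Over deviations from the group means, which leave out differences between groups, Per1, Nr4a1 and Nfatc1 had 0.64, 0.57 and 0.55 with Klf6, and the genes most like it were Rbm12 (0.80), 8430408G22Rik (0.76) and Zcchc8 (0.72). For Klf4 they were Anxa2 (0.92), Pank1 (0.91) and Luzp1 (0.88), and for Klf2 Inf2 (0.89), Mllt6 (0.84) and Paip2b (0.84). Egr1 was most like Pi4k2a (0.78), Klf9 (0.78) and Fmr1 (0.76), Klf10 like Lsm5 (0.83), Phf5a (0.77) and Ucp3 (0.74), and Klf5 like Irgm2 (0.69), Plekha2 (0.68) and Retnla (0.66). Of these other 15 genes, Anxa2 stayed among the top 3 by deviations for Klf4, Inf2 for Klf2, and Lsm5 and Phf5a for Klf10, while the top 3 of Egr1 and of Klf5 were other genes.

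Among 16 other KLF and SP genes, 12 were tested and Klf13 had the clearest difference. The genotype comparison called 1 of the 12 at rest and 1 after exercise, beside 3.86% and 6.42% of all genes. Exercise in vehicle called 1, beside 0.804%. Klf13, a KLF known from lymphocytes and heart, was at 34.6 to 60.0 CPM over the vehicle samples and at 20.4 to 34.1 CPM over the knockout-labelled ones. Vehicle and knockout-labelled muscle thus lay apart over all 20 samples, though narrowly. Within rest or exercise alone, ranges lay apart with knockout-labelled lower for 2.99% of genes at rest and 3.59% after exercise. The share over both states together was not counted. Its log2 fold change was -0.71 ± 0.12 (SE) at rest, with an edgeR adjusted p of 7.33e-04, and -0.84 ± 0.12 after exercise, with one of 7.55e-05, and both passed in every alternative run. Klf15, a glucocorticoid-driven regulator of amino acid and lipid use, rose with exercise in vehicle from 43.3 ± 5.32 to 64.7 ± 11.1 CPM (log2 fold change 0.58, SE 0.14, edgeR adjusted p = 0.0397). Of 10 fits with a library left out, 8 missed the threshold, the highest adjusted p being 0.141 without vehicle after exercise replicate 3, as did 7 of 14 other settings (highest 0.166). In knockout-labelled muscle Klf15 was at 49.5 ± 8.23 and 57.8 ± 10.5 CPM, with a log2 fold change of 0.22 (edgeR adjusted p = 0.9995). The difference between the responses of Klf15 was not called, and edgeR called 0 genes in that test. The other genes of the list passed in none of the comparisons, and Klf1, Klf8, Klf14 and Klf17 were too low to test.

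Of 14 partners and upstream regulators of EGR genes, 13 were tested. The genotype comparison called 0 of them at rest, 1 after exercise and 1 on average, beside 3.86%, 6.42% and 11% of all genes. Srf, the serum response factor that binds CArG boxes, was lower in knockout-labelled muscle after exercise (log2 fold change -0.40, edgeR adjusted p = 0.0380) and on average (-0.32, edgeR adjusted p = 0.0113). Its means were 84.2 ± 11.6 CPM in vehicle at rest, 87.7 ± 12.1 in vehicle after exercise, 71.5 ± 6.03 in knockout-labelled at rest and 66.6 ± 9.76 in knockout-labelled after exercise. After exercise, 8 of 10 fits with a library left out missed the threshold (highest adjusted p 0.118, for vehicle after exercise replicate 1), as did 3 of 14 other settings (highest 0.135, without vehicle after exercise replicate 2 and knockout-labelled after exercise replicate 4, the 2 endothelium-poor libraries). For the average none of 20 fits with a library left out and none of 13 other settings did. The list's other genes, among them the EGR corepressors Nab1 and Nab2, passed in no comparison, and Egr4 was too low to test. The list's median log2 fold change was -0.02 after exercise and -0.01 on average, beside 0.01 over all genes in both.

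All 15 regulators of KLF genes were tested. The genotype comparison called 1 of them at rest, 3 after exercise and the same 3 on average, beside 3.86%, 6.42% and 11% of all genes. Smad3, which carries the TGF-beta signal to the nucleus, was lower in knockout-labelled muscle after exercise by -0.77 on the log2 scale (edgeR adjusted p = 0.00206), at 79.5 ± 10.4 against 135 ± 29.2 CPM. Tgfb3, a TGF-beta ligand, was higher after exercise by 0.71 (edgeR adjusted p = 6.03e-04), at 45.9 ± 7.36 against 27.9 ± 4.81 CPM, and at rest by 0.46 (edgeR adjusted p = 0.0322; 7 of 10 fits with a library left out missed the threshold, the highest at 0.103 for vehicle at rest replicate 4, as did 1 of 14 other settings). Piezo1, a mechanically gated channel, was lower after exercise by -0.75 (edgeR adjusted p = 0.0336), though 6 of 10 fits with a library left out missed the threshold, the highest at 0.0960 for vehicle after exercise replicate 2, as did 3 of 14 other settings (highest 0.210, without both endothelium-poor libraries). After exercise Tgfb3 and Smad3, a ligand and a signal carrier of one pathway, differed in opposite directions, but the ligand Tgfb2 did not follow Tgfb3. Tgfb2 was not called. At rest it was lower in knockout-labelled muscle, at 10.85 to 14.38 CPM against 16.93 to 22.21 CPM in vehicle. Ranges lay apart in that direction at rest for 2.99% of the genes tested. After exercise its means were 16.82 CPM in knockout-labelled muscle and 16.74 CPM in vehicle. None of the 15 passed with exercise.

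Of 21 genes reported as EGR or KLF targets, 20 were tested. Exercise in vehicle called 1 of them, beside 0.804% of all genes, and the genotype comparison after exercise called 1, beside 6.42%. Nr4a1 rose with exercise in vehicle from 153 ± 77.0 to 395 ± 75.9 CPM (log2 fold change 1.37, edgeR adjusted p = 0.00921; 0.106 in a fit to those 2 groups alone). After exercise it was lower in knockout-labelled muscle, at 206 ± 10.1 CPM (log2 fold change -0.94, edgeR adjusted p = 0.0254), though 3 of 10 fits with a library left out missed the threshold, the highest at 0.0648 for vehicle after exercise replicate 4, as did 2 of 14 other settings (highest 0.130, without both endothelium-poor libraries). In knockout-labelled muscle Nr4a1 was at 93.3 to 178 CPM at rest and at 196 to 218 CPM after exercise, so those ranges lay apart. With exercise higher, 0.487% of genes had such ranges there, and 0 genes were called. Averaged over the genotypes, the exercise call of Nr4a1 held in all 20 fits with a library left out (highest edgeR adjusted p 0.0272) and in 13 other settings. For the difference between the responses edgeR called 0 genes. The endothelial KLF targets Nos3 and Thbd and the EGR targets F3 and Pdgfa passed in no comparison, and the list's median with exercise in vehicle was 0.02.

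**Figure D5:**
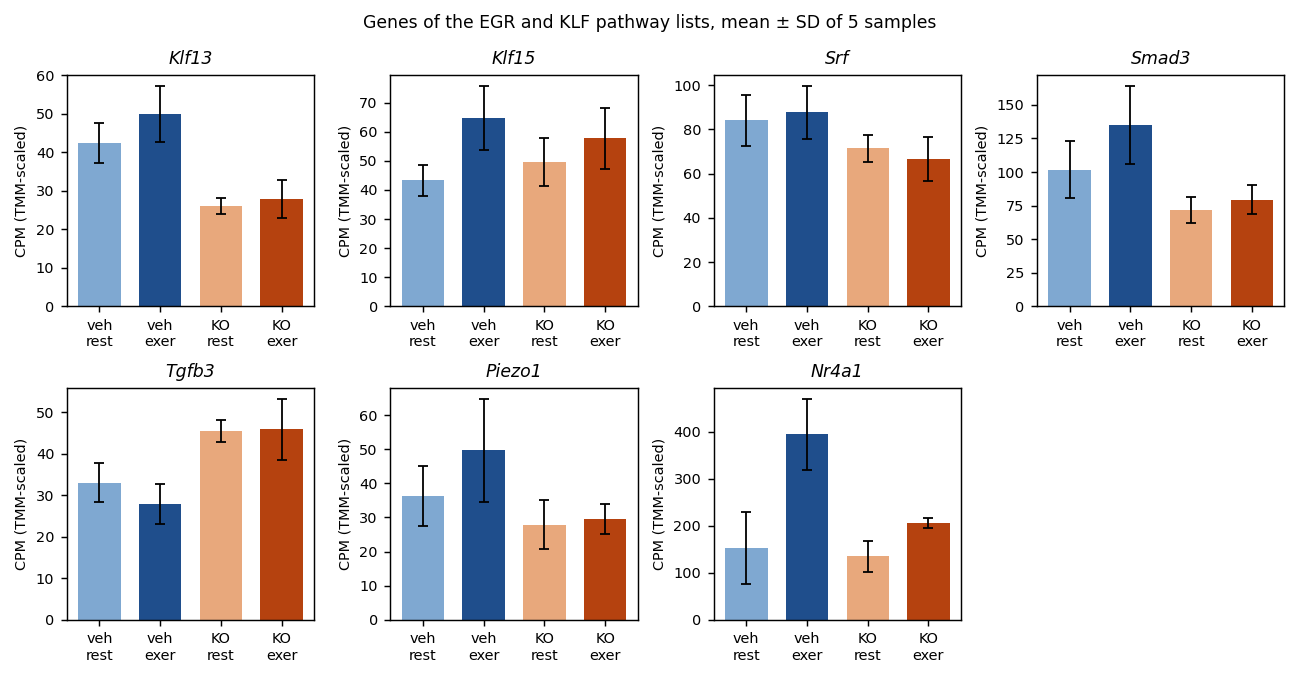
Mean level in TMM-scaled CPM (vertical axis, from 0) of 7 called genes of the 4 pathway lists in the 4 groups (veh, vehicle; KO, knockout-labelled; exer, after exercise), with bars for the SD of 5 samples. Klf13 is at 42.4 and 50.02 CPM in vehicle against 26.0 and 27.9 CPM in knockout-labelled muscle, while Tgfb3 goes the other way.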

How the data were processed

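RNA of 20 mouse gastrocnemius samples was sequenced after Trizol and Qiagen column extraction and an Illumina library kit, per the labels' protocols. The authors deposited 1 table of whole-number counts per gene symbol, with 1 column per sample. The submitters' processing notes name Partek, STAR 2.7.8a, DESeq2 and the builds mm10 and GRCm39, with no role or order; the counting program, its strand setting and its annotation are not given in the sources used here. Counts of overlapping genes on opposite strands could then mix, but no member's exons overlapped another gene's in GENCODE M21. Promoter windows are on GRCm38.p6 and were joined by symbol only, so no coordinates were converted.

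Groups were taken from the treatment labels. The descriptions of the exercised knockout-labelled samples speak of training where their titles say acute exercise, and they were analysed as acute. Genes were kept by filterByExpr (minimum count 10) of edgeR 4.0.16 in R 4.3.3, which left 13560. A robust quasi-likelihood model was fitted to all 20 samples with TMM scaling, 1 mean per group and 7 contrasts. P-values were adjusted by Benjamini-Hochberg across all genes tested, with a threshold of 0.05. Log2 CPM used a prior count of 2. Egr2 and Egr3, below the filter, were compared by exact permutation of CPM over 252 relabellings. The fit was tested on simulated counts. Counting error limits the members at a few counts per library most, and without molecular identifiers reads need not be independent molecules.

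Named genes were the 8 members, the 3 genes most like each tested member (mean log2 CPM of at least 1), and the called genes of 4 pathway lists. Some list genes that were not called, among them Tgfb2, were named beside these. The results of 2 list genes are not reported here. Members and lists were chosen with earlier results of these data known. The marker sums were planned as a description without a test, and their permutation tests with the members were outside that plan. Alternatives covered scaling, filters, thresholds, DESeq2 1.42.0, limma-voom (limma 3.58.1), the 2 groups of a contrast alone, mitochondrial genes left out, a replicate block and each sample left out; 3 were added after seeing the data (2 marker sums as covariates, and the 2 libraries lowest in endothelium markers left out).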

Additional observations from a re-analysis of the deposited data

Results flagged for a closer look

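Egr1 and Egr2 each had 1 sample far from the other 4 of its group, out of 32 groups of 5 looked at; chance flags about 1 group in 20. Egr1 in knockout-labelled muscle after exercise was at 13.9 CPM (103 counts) in replicate 4 and at 4.49 to 6.59 CPM in the others, and the gap to the nearest was 0.777 of the whole range. The same library had the highest muscle fibre marker sum of all (195020 CPM) and the lowest Klf2 (5.40 CPM). Whether its makeup bears on Egr1 was not tested.

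Egr2, the myelination factor of Schwann cells, was at 1.29 CPM (12 counts) in vehicle after exercise replicate 4 and at 0.0937 to 0.436 CPM in the others, a gap of 0.715 of the range. That library also had the highest sum of 7 Schwann cell markers of all 20, at 142 CPM, against 19.1 to 101 CPM in the other 4 of its group and 35.9 to 79.9 CPM in the other groups; all 7 markers were detected in each library. The part of nerve RNA in this Egr2 value was not tested.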

How the results depend on the processing

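The number of members called stayed at 0 in every setting run for exercise in vehicle, exercise in knockout-labelled muscle, genotype at rest and the interaction. For the averaged exercise response it went from 0 to 1 with DESeq2, with the slow fibre marker sum as covariate and at an adjusted p under 0.10, and lay between 0 and 1 with each library left out. For the genotype difference after exercise it went from 0 to 1 at an adjusted p under 0.10 and lay between 0 and 1 with each library left out. For the averaged genotype difference it went from 1 to 0 with library size only, limma-voom, both endothelium-poor libraries left out, and the replicate block (Klf6 edgeR adjusted p = 0.0550), and lay between 0 and 1 with each library left out. Of 30 same-numbered pairs of samples, 15 had r over 0.1 (range -0.45 to 0.44). Pairs with unlike numbers were not compared, so this cannot decide whether the replicate numbers pair the samples. The block is given as a setting only. Signs turned for 10 log2 fold changes of Egr1, Klf2, Klf4, Klf5 and Klf10, none of which had passed the test, the largest being -0.23. Klf10, averaged genotype, was -0.02 and became 0.0127 with library size only, 0.0118 with the slow fibre covariate and 0.0172 with the endothelium covariate (-0.19 to 0.0711 with each library left out). Klf2 with exercise in knockout-labelled muscle was 0.07 and became -0.00557 with the replicate block and -0.0464 with limma-voom (-0.0650 to 0.29). Klf4, averaged genotype, was -0.02 and became 0.0031 with library size only, 0.0208 with the block, 0.0126 with limma-voom and 0.00137 without both endothelium-poor libraries (-0.0925 to 0.0747). Klf4, genotype at rest, was 0.08 and became -0.0375 with the slow fibre covariate (-0.0626 to 0.24). Klf5 with exercise in vehicle was -0.04 and became 0.13 without both endothelium-poor libraries (-0.19 to 0.13). With each library left out in turn, Klf4 genotype after exercise (-0.11) spanned -0.27 to 0.0688, Egr1 genotype at rest (0.07) -0.0859 to 0.25, and Klf5 -0.49 to 0.0418 with exercise in knockout-labelled muscle (-0.23), -0.27 to 6.00e-04 for averaged exercise (-0.14) and -0.45 to 0.0824 for the interaction (-0.19). Over all genes, the 109 calls with exercise in vehicle were 195 by DESeq2, 61 in a fit to those 2 groups, 235 with the slow fibre covariate, 230 with the endothelium covariate and as few as 52 with a library left out (vehicle at rest replicate 5). The 86 for the averaged exercise response were 167 by DESeq2, 240 and 177 with the covariates and as few as 35 (without vehicle at rest replicate 4). The 523 for genotype at rest were 845 and 793 with the covariates, and the 870 after exercise were 1425 and 1355, 567 in the fit to 2 groups and 492 without both endothelium-poor libraries. The 0 for the interaction were 3 by DESeq2 and 1 without knockout-labelled at rest replicate 3, and the 0 for exercise in knockout-labelled muscle were 3 with the slow fibre covariate. A minimum of 50 counts left no value for Klf5.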
